A study of Drosophila melanogaster with 36 samples.

Results

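The comparison asked which late ageing changes of Drosophila melanogaster differ between muscle and head and which do not. It takes the log2 change from 15 to 45 d of age in muscle and subtracts the same change in heads, gene by gene, and this difference of differences is called the interaction here. The 12 libraries that enter it, of 36 in the series, are 3 each of muscle at 45 d, muscle at 15 d, heads at 45 d and heads at 15 d, all from flies that the labels call WT (5905). Libraries of 3 d and 30 d stayed out of the test. Those of 30 d are used as a description at the end, and both ages in 1 alternative fit. No transgene, mutation or treatment is named for these groups. Their sex is not stated, and neither is the number of flies behind a library. Whether replicates came from separate animals is also not stated, so the p-values measure the spread between libraries, which may be technical. A positive interaction means that the ratio of 45 d to 15 d was larger in muscle than in heads, and a negative one that it was smaller.

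Fly muscle is dominated by flight and leg fibres, whose sarcomeres are built from myosin thick filaments, actin thin filaments and giant elastic proteins. The fibres burn carbohydrate through glycolysis and the citric acid cycle in densely packed mitochondria, and calcium is pumped back into the sarcoplasmic reticulum after each contraction. Heads hold brain, eyes, fat body and some muscle. In ageing flies, antimicrobial peptide genes of the Toll and Imd pathways are known to be active in many tissues, and muscle is known for protein damage and for the loss of mitochondrial function.

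Levels are in CPM, the count of a gene scaled to a common library total, on library sizes scaled with TMM factors, given per library in the order of replicates 1 to 3, and changes are log2 fold changes ± SE. Rose, fell, higher and lower are used of changes with an adjusted p under 0.05 by edgeR's quasi-likelihood test (Benjamini-Hochberg, all genes tested). No overlap means that the libraries of 1 age all lay above or all below those of the other. This held for 32.6% of genes tested in muscle and 26.9% in heads. Gene counts came to between 3.0 and 3.68 M per muscle library and between 3.33 and 4.36 M per head library. The 7 muscle marker genes summed to 7386 to 7666 CPM in muscle at 45 d, against 10121 to 12108 CPM at 15 d, and to 1442 to 1525 CPM in heads at 45 d, against 1362 to 1626 CPM at 15 d. The libraries labelled muscle also held digestive enzyme transcripts, and the 6 gut markers summed to 10638 to 11382 CPM there at 45 d and to 10942 to 11356 CPM at 15 d. In heads the same 6 genes summed to 57.9 to 93.4 CPM at 45 d, against 27.9 to 44.5 CPM at 15 d. The 6 photoreceptor markers summed to between 23976 and 41951 CPM in heads at 45 d, against 52870 to 55850 CPM at 15 d, and to at most 135 CPM in any muscle library. One library stood apart in its tallies. Reads without a unique alignment made up 36.6% of those counted or tallied in muscle replicate 3 at 45 d, against 5.04 to 8.59% in the other 11 libraries.

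Muscle changed in more genes than heads did, and only a small share of genes had a change that differed between the tissues by the test of that difference. Of 9363 genes tested, 1556 (16.6%) passed the threshold in muscle, 767 of them higher at 45 d (8.19%) and 789 lower (8.43%). In heads 908 genes passed (9.7%), 415 higher (4.43%) and 493 lower (5.27%). The interaction passed for 237 genes (2.53%), with 88 higher (0.94%) and 149 lower (1.59%), and its size among them had a median of 0.69 on the log2 scale. Over all genes tested, the median interaction was 0.02. The 95% interval of the interaction lay within a 2-fold difference in either direction for 6954 genes (74.3%), with a median half-width of 0.42. Both counts depended on the fit. When the 3 d and 30 d libraries were added to it, 3 genes passed higher and 13 lower, among them 1 sarcomere, 2 glycolysis and 1 citric acid cycle gene, 0 of the mitochondrial genome and 0 of the proteasome. The share of interaction calls that were higher was 37.1% with TMM, 26.8% with RLE factors, 50.2% with library size alone, 23.9% with DESeq2 and 17.7% with mitochondrial genome genes taken out first. Leaving out 1 library at a time gave 30 to 58 genes higher for 11 of the 12 libraries, with the 30 without muscle replicate 1 at 45 d, and 118 without head replicate 3 at 45 d. For genes lower it gave 94 to 99 without head replicate 1 or 2 of either age and 235 without muscle replicate 1 at 15 d.

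Few of the genes that passed in 1 tissue alone passed the test of the difference. Of 1137 genes that passed in muscle and not in heads, 169 passed the interaction. Of 489 that passed in heads and not in muscle, 39 did. Among genes past the interaction, 105 fell in muscle alone, 64 rose in muscle alone, 25 rose in heads alone and 14 fell in heads alone. A further 15 passed in both tissues in opposite directions and 13 passed in both in the same direction, and 1 passed in neither. Pearson's correlation of the muscle and head changes across all genes tested was 0.38, and genes are not independent replicates.

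**Figure D1:**
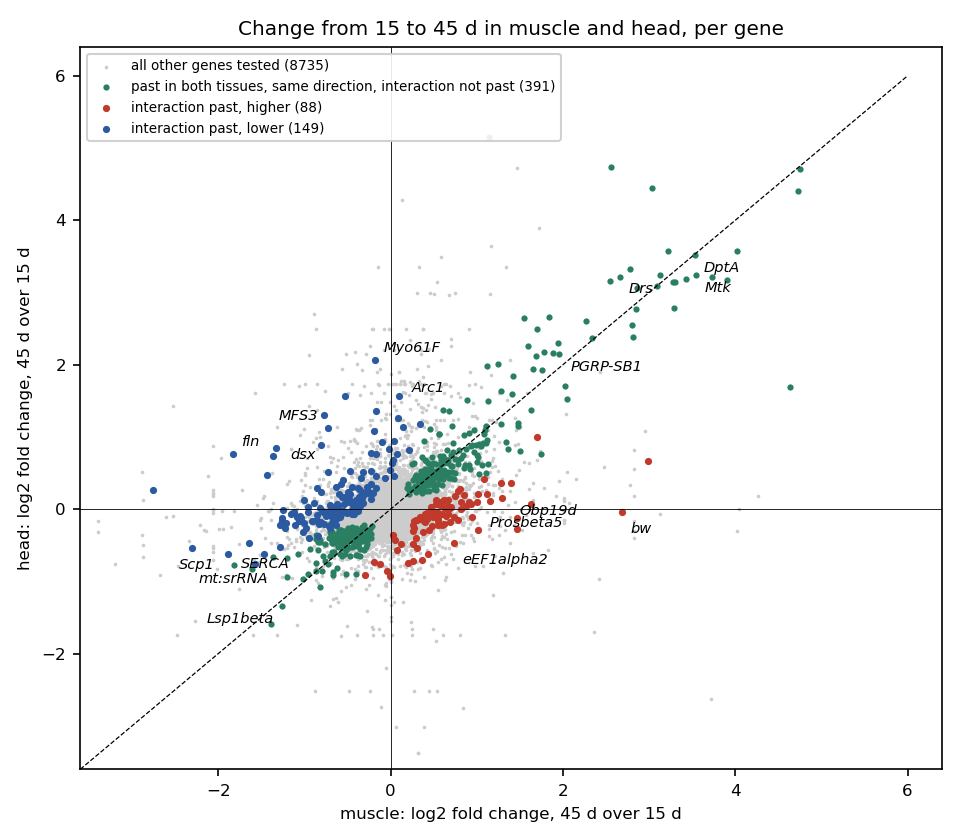
Log2 fold change from 15 to 45 d in muscle (horizontal axis) and in heads (vertical axis), 1 point per gene of the 9363 tested, with 4 genes outside the axes. Red points (88) and blue points (149) passed the interaction, green points (391) passed in both tissues in the same direction without passing the interaction, and the dashed line marks equal change. Most blue points lie in a horizontal band left of 0, where muscle was lower and head changes were near 0, and the antimicrobial genes Mtk, Drs and DptA lie near the dashed line.

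Of 32 sarcomere genes tested, 17 fell in muscle, 3 rose and 12 did not pass, while most did not pass in heads. Of the 32, 11 passed the interaction lower and 1 higher, against 1.59% and 0.94% of all genes, and the list's median interaction was -0.30. Their median change in muscle was -0.28. In heads 3 fell and 4 rose, with a median of -0.01. bt encodes projectin, a giant elastic protein that links thick filaments to the Z-disc. It stood at 2075, 2312 and 2082 CPM in muscle at 45 d, against 3528, 3789 and 4360.4 CPM at 15 d, with no overlap. In heads it stood at 346, 314 and 307 CPM at 45 d, against 231, 266 and 292 CPM at 15 d, also without overlap but in the other direction, and that change did not pass (adjusted p = 0.0664). Its interaction was -1.14 ± 0.13 (adjusted p = 0.000172). Mf, which encodes the thick filament protein myofilin, stood at 1254, 1271 and 1177 CPM in muscle at 45 d, against 2058, 2151 and 2391 CPM at 15 d, and its interaction was -0.62 ± 0.10 (adjusted p = 0.00325). fln, for flightin of flight muscle thick filaments, had the most negative interaction of the 11. It stood at 11.4, 9.1 and 5.85 CPM in muscle at 45 d, against 32.6, 27.2 and 35.6 CPM at 15 d, and at 2.86, 2.87 and 2.78 CPM at 45 d, against 2.52, 1.67 and 0.89 CPM at 15 d in heads, where its counts summed to 35 at 45 d and 20 at 15 d. Its interaction was -2.59 ± 0.46 (adjusted p = 0.00561), but 61.6% of its exon bases lie in another annotated gene, mostly the antisense RNA asRNA:CR45161, and the strand setting of the counts is not known. The other members that passed lower were the titin gene sls, Obsc, Strn-Mlck, Zasp52, tmod, TpnC41C, Prm and Mlp84B, with interactions between -1.0 for TpnC41C and -0.43 for Mlp84B. Mlp84B, a Z-disc protein gene, passed through a rise in heads (0.46), not a fall in muscle (0.04). TpnC25D, a troponin C gene, was the one member higher, at 0.55 ± 0.14. Mhc, the muscle myosin heavy chain, ranged from 2753 to 2776 CPM in muscle at 45 d, against 3185 to 3579 CPM at 15 d, and its interaction did not pass. The summed muscle markers given above moved with this list in muscle, but they share members with it, among them bt, Mf and fln. Among the markers bt, Mf, Mhc, fln and TpnC4 did not overlap between the ages in muscle, where 32.6% of all genes tested did not. Act88F did, at 333 to 357 CPM at 45 d, against 234 to 413 CPM at 15 d. So did up, at 952 to 991 CPM, against 942 to 1298 CPM. The part of muscle content in the result was not tested. In bulk RNA, fewer cells of a type and less RNA per cell cannot be told apart. The count of 11 dropped to 7 without muscle replicate 3 at 45 d, to 6 without head replicate 1 at 45 d and to 5 without head replicate 1 at 15 d. The 17 that fell in muscle became 11 with library size alone and 22 with RLE factors.

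Both calcium handling genes that passed the interaction fell steeply in muscle. SERCA encodes the pump that returns calcium to the sarcoplasmic reticulum, and Scp1 a calcium-buffering protein of the sarcoplasm. SERCA (FBgn0263006, r6.36 2R:23925077-23935884) stood at 1258, 1210.1 and 1121 CPM in muscle at 45 d, against 3513, 3584 and 4108 CPM at 15 d. In heads it was at 525, 527 and 466 CPM at 45 d, against 654, 724 and 723 CPM at 15 d, so that it fell in both tissues without overlap, with log2 changes of -1.64 in muscle and -0.47 in heads. The interaction was -1.17 ± 0.11 (95% interval -1.41 to -0.94, adjusted p = 2.67e-05). Scp1 stood at 237, 224 and 186 CPM in muscle at 45 d, against 966, 1071 and 1168 CPM at 15 d, and at 4.05, 2.43 and 1.95 CPM at 45 d, against 4.03, 3.62 and 4.68 CPM at 15 d in heads. Its interaction was -1.77 ± 0.33 (adjusted p = 0.00782). These 2 were the members past the interaction among 8 tested, while 5 of 8 fell in muscle and 2 of 8 in heads. Scp1 did not pass with voom weights by group or without head replicate 1 at 45 d.

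Most genes of glycolysis fell in muscle, and none fell in heads. Of 15 genes tested, 10 fell in muscle and none rose, with a median of -0.43. In heads 1 rose and none fell, with a median of -0.03, although 10 of the 15 estimates there were below 0. The interaction passed lower for 9 of 15, with a median of -0.45 and all 15 estimates below 0. Ald1 encodes the aldolase that splits fructose bisphosphate. It stood at 3965, 4284 and 4129.7 CPM in muscle at 45 d, against 7608, 7933 and 8463 CPM at 15 d. Heads had it at 1617, 1673 and 1823 CPM at 45 d, against 1749, 1681 and 1813 CPM at 15 d, where the libraries overlapped. The interaction was -0.92 ± 0.09 (adjusted p = 5e-05). Gpo1, the mitochondrial enzyme of the glycerol phosphate shuttle, stood at 318, 306 and 287 CPM in muscle at 45 d, against 555, 592 and 619 CPM at 15 d. Its head change was 0.03 ± 0.08 and its interaction -0.98 ± 0.11 (adjusted p = 7.34e-05). Gapdh1, PyK for pyruvate kinase, Eno for enolase, Pglym78, Pfk for phosphofructokinase and Hex-A for hexokinase had interactions between -0.65 for Gapdh1 and -0.36 for Hex-A. The ninth was Ldh, lactate dehydrogenase, named after its values were seen, and it reached its difference by the other route. Ldh rose in heads, by 1.17 ± 0.15 (adjusted p = 0.00017), with 32.8 CPM at 45 d, against 14.4 CPM at 15 d, and its muscle change of 0.34 ± 0.13 did not pass (adjusted p = 0.0792). The 9 dropped to 5 without head replicate 2 at 45 d and to 5 without head replicate 2 at 15 d.

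Among 9 genes of glycogen and trehalose use, 2 passed the interaction lower, against 1.59% of all genes. Glyp, glycogen phosphorylase, stood at 574, 567 and 637 CPM in muscle at 45 d, against 851, 866 and 979 CPM at 15 d, and its interaction was -0.54 ± 0.11 (adjusted p = 0.0173). Tret1-1, a trehalose transporter, rose in heads alone, where it stood at 343, 363 and 387 CPM at 45 d, against 269.7, 249.9 and 290.1 CPM at 15 d. Its interaction was -0.49 ± 0.11 (adjusted p = 0.0187). Neither passed without head replicate 1 or without head replicate 2 at 15 d.

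The enzymes that feed and run the citric acid cycle fell in muscle almost throughout. Of 14 genes for pyruvate dehydrogenase and the cycle, 13 fell in muscle and 1 in heads, with medians of -0.47 and -0.17. The 13 became 9 with library size alone. The interaction passed lower for 4, its median was -0.25 and all 14 estimates were below 0. mAcon1, mitochondrial aconitase (FBgn0010100, r6.36 2L:21168570-21173185), had the smallest adjusted p of all 9363 genes. It stood at 2223, 2382 and 2511 CPM in muscle at 45 d, against 5216, 5086 and 5542 CPM at 15 d. Its head libraries stood at 684, 675 and 714 CPM at 45 d, against 721, 730.1 and 730.2 CPM at 15 d. Its interaction was -1.08 ± 0.09 (95% interval -1.27 to -0.89, adjusted p = 1.72e-05), and it passed in 22 of 22 alternative fits. Ogdh, a subunit of the oxoglutarate dehydrogenase complex, stood at 2624, 2907 and 2939.8 CPM in muscle at 45 d, against 5774, 6023 and 6461 CPM at 15 d, and its interaction was -0.89 ± 0.09 (adjusted p = 7.34e-05). muc, the acetyltransferase subunit of pyruvate dehydrogenase, had an interaction of -0.74 ± 0.10 (adjusted p = 0.000717), and Idh3a, of isocitrate dehydrogenase, one of -0.56 ± 0.11 (adjusted p = 0.00998).

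Many genes of the respiratory chain fell in muscle too, and a smaller number had a change that differed from that of heads. Of 33 complex I genes 13 fell in muscle and 2 in heads, with medians of -0.23 and -0.22. The interaction passed lower for 2, against 1.59% of all genes. The 2 became 1 without muscle replicate 1 or 2 at 45 d, head replicate 2 of either age or head replicate 3 at 15 d, and the 2 in heads became 0 to 5 with single libraries left out. Of 34 genes of complexes II to V 25 fell in muscle and 5 in heads, against 8.43% and 5.27% of all genes, with medians of -0.37 and -0.19. The interaction passed lower for 2 of the 34, against 1.59% of all genes. The 5 in heads became 0 without head replicate 1 at 45 d and 11 without head replicate 3 at 45 d, and the 2 became 7 without muscle replicate 1 at 15 d. With all 24 libraries 2 genes of complex I and 6 of complexes II to V fell in muscle, and with library size alone 7 and 17 did. For all 34 the 95% interval of the interaction lay within 2-fold. The 2 were SdhA and SdhB, subunits of succinate dehydrogenase, which belongs to both the chain and the citric acid cycle. SdhA stood at 994, 1054 and 1072 CPM in muscle at 45 d, against 1828, 1962 and 2094 CPM at 15 d, with an interaction of -0.75 ± 0.09 (adjusted p = 0.000331), and SdhB had an interaction of -0.66 ± 0.10 (adjusted p = 0.00116). ND-51 and ND-MLRQ were the 2 of complex I, at -0.46 ± 0.09 and -0.69 ± 0.16. Mitochondrial carriers passed lower in 3 of 11: Mpcp1, a phosphate carrier, at -1.07 ± 0.16, Ucp4A, an uncoupling protein, at -0.77 ± 0.14, and sesB, the ATP and ADP exchanger, at -0.47 ± 0.10 (adjusted p = 0.0014, 0.00561 and 0.0139).

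Most transcripts of the mitochondrial genome that were tested fell in muscle. They made up 5.46 to 7.82% of the gene counts of muscle at 45 d, against 12.7 to 13.2% at 15 d, and 6.46 to 7.22% in heads at 45 d, against 7.83 to 8.52% at 15 d. Of 15 such genes tested, 10 fell in muscle and 2 in heads, and the interaction passed lower for 5, with a median of -0.63. The large ribosomal RNA mt:lrRNA stood at 24952, 26781 and 21664 CPM in muscle at 45 d, against 66205, 68455 and 68180.4 CPM at 15 d. The head libraries held it at 25440.5, 24070.2 and 27905 CPM at 45 d, against 38369.5, 37921 and 42343 CPM at 15 d. Its interaction was -0.85 ± 0.11 (adjusted p = 0.000441). The small ribosomal RNA mt:srRNA had an interaction of -1.26 ± 0.17 (adjusted p = 0.000597). mt:Cyt-b, mt:CoI and mt:CoIII, subunits of complexes III and IV, had interactions of -0.95 ± 0.19, -0.77 ± 0.14 and -0.70 ± 0.14 (adjusted p = 0.0109, 0.00767 and 0.0126). Muscle replicate 3 at 45 d, the library with many reads not uniquely aligned, was the lowest of its group for all 5, and the count of 5 was the same without each library in turn. With these genes taken out before the libraries were scaled, 48 genes of the nucleus passed the interaction higher and 223 lower.

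Most proteasome genes rose in muscle, and none passed in heads. The 26S proteasome is the complex that degrades ubiquitin-tagged proteins, with a 20S core of alpha and beta subunits and a 19S cap of Rpt and Rpn subunits. Of 32 genes tested, 25 rose in muscle and none fell, with a median of 0.50. None passed in heads, where the median was 0.07. The interaction passed higher for 14, against 0.94% of all genes, and 31 of the 32 estimates were above 0. Prosbeta5, a catalytic subunit of the core, stood at 291, 257 and 259 CPM in muscle at 45 d, against 127, 149 and 126 CPM at 15 d. In heads it stood at 82.7, 83.4 and 89.5 CPM at 45 d, against 83.7, 77.4 and 77.9 CPM at 15 d. Its interaction was 0.91 ± 0.12 (95% interval 0.65 to 1.17, adjusted p = 0.000496). Rpn3 and Rpt6 of the cap and Prosalpha5 of the core had interactions of 0.62 ± 0.10, 0.62 ± 0.11 and 0.81 ± 0.14 (adjusted p = 0.00366, 0.00423 and 0.00492). Rpt3, Rpn2, Prosalpha3, Rpt5, Rpn10, Prosbeta7, Rpn8, Prosbeta3, Prosbeta6 and Prosbeta1 made up the rest, between 0.45 for Prosbeta6 and 0.68 for Rpt3. The 14 dropped to 6 without muscle replicate 1 at 45 d or muscle replicate 3 at 15 d, to 8 without muscle replicate 1 at 15 d, and to 9 without muscle replicate 2 at 15 d, head replicate 1 at 45 d or head replicate 3 at 15 d.

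No cytosolic ribosomal protein or translation initiation factor gene passed the interaction, while some genes of defence against oxidants did. Of 80 cytosolic ribosomal protein genes 27 rose in muscle and 1 in heads, with medians of 0.19 and 0.08, and none passed the interaction. All 80 intervals of the interaction lay within 2-fold. The 27 became 77 when libraries were scaled by size alone, which put the median change of all genes in muscle at 0.15, against 0.01 with TMM. The 27 became 3 without muscle replicate 3 at 15 d, 4 without muscle replicate 1 of either age, 9 without muscle replicate 2 at 15 d and 14 without muscle replicate 3 at 45 d. Of 36 translation initiation factor genes 8 rose in muscle and 1 in heads, against 8.19% and 4.43% of all genes, with none past the interaction. The 8 became 21 with library size alone, 4 with DESeq2, 1 with all 24 libraries, 2 without muscle replicate 3 at 15 d, 3 without muscle replicate 1 at 45 d, and 4 and 5 without muscle replicates 1 and 2 at 15 d. Among 32 glutathione S-transferase genes 2 passed the interaction higher, against 0.94% of all genes. These were GstD9 at 0.87 ± 0.16 (adjusted p = 0.0083) and GstD1 at 0.51 ± 0.13 (adjusted p = 0.0448). Both lie in a cluster of close paralogs, and GstD1 passed in 8 of 22 alternative fits. Of 18 antioxidant genes 1 passed the interaction higher, against 0.94% of all genes. It was Trxr1, thioredoxin reductase, with an interaction of 0.49 ± 0.11 (adjusted p = 0.0303), which passed in 10 of 22.

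**Figure D2:**
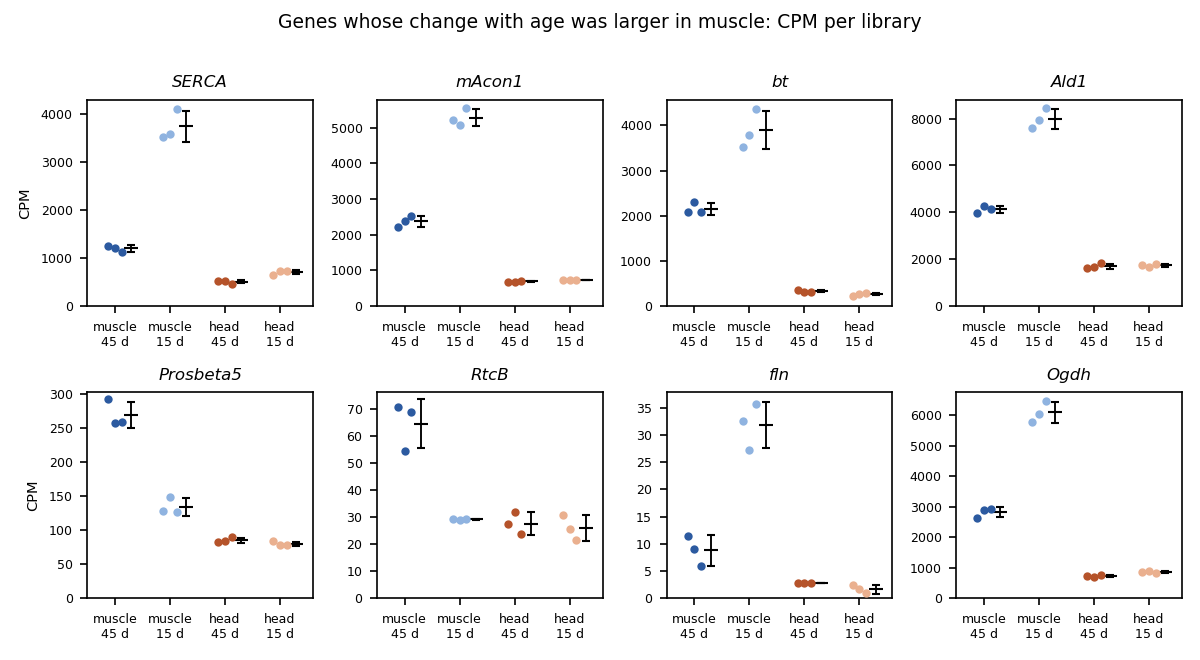
CPM per library (points) with mean and SD beside them (n = 3) for SERCA, mAcon1, bt, Ald1, Prosbeta5, RtcB, fln and Ogdh, in muscle at 45 and 15 d and heads at 45 and 15 d, each panel on its own linear axis from 0. The muscle groups do not overlap in any panel, with SERCA at 1121 to 1258 CPM at 45 d and 3513 to 4108 CPM at 15 d, while Ald1, Prosbeta5 and RtcB overlap between the ages in heads.

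Several of the largest interactions belonged to genes outside these pathways, and some of them rest on few counts. bw, an ABC transporter of eye pigment precursors, had the most positive interaction, 2.72 ± 0.58 (adjusted p = 0.0191), which passed in 17 of 22 alternative fits and was lost with DESeq2, with all 24 libraries, and without muscle replicate 1 at 45 d or muscle replicate 2 or 3 at 15 d. It stood at 3.15, 1.69 and 2.06 CPM in muscle at 45 d, against 0.701, 0.348 and 0 CPM at 15 d, or 22 counts against 3, a ratio of 7.0 with an exact 95% counting interval of 2.10 to 36.5. In heads it was at 76.7, 76.1 and 72.8 CPM at 45 d, against 82.9, 75.2 and 73.9 CPM at 15 d. Obp19d, an odorant-binding protein gene, stood at 159, 145 and 167 CPM in muscle at 45 d, against 65.6, 65.2 and 61.0 CPM at 15 d, and at 2330.1, 2611 and 2317 CPM at 45 d, against 2337, 2050.3 and 2155 CPM at 15 d in heads. Its interaction was 1.15 ± 0.11 (adjusted p = 3.72e-05). RtcB, an RNA ligase that seals spliced tRNAs, stood at 70.7, 54.3 and 68.8 CPM in muscle at 45 d, against 29.5, 28.9 and 29.1 CPM at 15 d, and at 27.4, 31.8 and 23.6 CPM at 45 d, against 30.7, 25.6 and 21.4 CPM at 15 d in heads. Its interaction was 1.04 ± 0.21 (adjusted p = 0.0112). baf, a DNA-binding protein of the nuclear envelope, rose in both tissues, by 1.28 in muscle and 0.37 in heads, with an interaction of 0.91 ± 0.15 (adjusted p = 0.00294). La, a protein that binds new RNA polymerase III transcripts, had an interaction of 0.90 ± 0.14 (adjusted p = 0.00142), and Trhn, the neuronal tryptophan hydroxylase, one of 0.94 ± 0.21 (adjusted p = 0.0222), which passed in 14 of 22 alternative fits.

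On the negative side, Sgp stood at 158, 175 and 173 CPM in muscle at 45 d, against 433, 412 and 425 CPM at 15 d, with an interaction of -2.17 ± 0.47 (adjusted p = 0.0222) and with 15 counts in heads at 45 d and 8 at 15 d. It passed in 16 of 22 alternative fits, and not with voom weights, with all 24 libraries, or without head replicate 1 or 2 at 45 d or head replicate 2 or 3 at 15 d. FASN2, a fatty acid synthase, stood at 167, 202 and 175 CPM in muscle at 45 d, against 311, 332 and 313 CPM at 15 d. Heads had it at 4.77, 6.63 and 3.61 CPM at 45 d, against 3.78, 3.06 and 1.56 CPM at 15 d, and its interaction was -1.70 ± 0.32 (adjusted p = 0.00767). sosie stood at 3.72, 2.7 and 2.75 CPM in muscle at 45 d, against 6.31, 6.97 and 8.98 CPM at 15 d and had an interaction of -1.15 ± 0.26 (adjusted p = 0.0276), which passed in 13 of 22 alternative fits. Ugt36D1, a UDP-glycosyltransferase, fell in both tissues and further in muscle, with an interaction of -0.76 ± 0.15 (adjusted p = 0.0135). rdgA, a diacylglycerol kinase of photoreceptors, fell in muscle (-0.58) and not in heads (-0.07), with an interaction of -0.51 ± 0.11 (adjusted p = 0.0212). foxo, the transcription factor held back by insulin signalling, had an interaction of -0.48 ± 0.11 (adjusted p = 0.0254), with a muscle change of -0.26, and passed in 15 of 22.

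Through heads alone 39 genes passed the interaction, and some of those that rose there had low levels. Myo61F, a class I myosin known from the brush border of the gut, stood at 9.77, 6.19 and 6.11 CPM at 45 d, against 1.51, 1.67 and 2.0 CPM at 15 d in heads, or 91 counts against 21. The head groups did not overlap. In muscle it stood at 95.9, 102 and 113 CPM at 45 d, against 118, 121 and 113 CPM at 15 d, with overlap. The interaction was -2.24 ± 0.29 (95% interval -2.85 to -1.64, adjusted p = 0.000378), and it passed in 22 of 22 alternative fits. Itgbn, an integrin beta subunit, stood at 7.62, 5.53 and 3.89 CPM in heads at 45 d, against 2.52, 1.95 and 1.34 CPM at 15 d, with an interaction of -2.10 ± 0.48 (adjusted p = 0.0272) that passed in 16 of 22 alternative fits. It was lost with voom weights and without each head library but replicate 3 at 45 d. Amy-p, an amylase with a close paralog in Amy-d, stood at 52.2, 31.6 and 75.6 CPM in heads at 45 d, against 22.9, 20.3 and 22.3 CPM at 15 d. In muscle it stood at 2774, 2604 and 3389 CPM at 45 d, against 2749, 2698 and 2789.6 CPM at 15 d. Its interaction was -1.17 ± 0.28 (adjusted p = 0.0349), which passed in 12 of 22 fits. The summed gut markers of heads given above moved with these 3 genes. Their range was 57.9 to 93.4 CPM at 45 d, against 27.9 to 44.5 CPM at 15 d, and Amy-p itself makes up most of it. Of the other 5, Mal-A1 ranged from 6.39 to 14.53 CPM in heads at 45 d, against 4.18 to 6.46 CPM at 15 d, alphaTry from 0 to 11.7 against 0 to 7.57 CPM, betaTry from 0.278 to 7.86 against 0.504 to 5.57 CPM, and Jon65Aiv from 0 to 7.15 against 0 to 2.67 CPM. Jon25Bi was at 0 in all 6 head libraries, and at no more than 13.1 CPM in any muscle library. The part of gut RNA in these head values was not tested. Of 25 digestive enzyme genes 4 rose in heads and none fell, with a median of 0.90, against 4.43% and 5.27% of all genes. In muscle 4 rose and 2 fell, against 8.19% and 8.43% of all genes. Among all 25, Amy-p was the one member past the interaction.

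Arc1, an activity-regulated gene whose protein forms capsids that carry RNA, stood at 472, 449.6 and 340.2 CPM in heads at 45 d, against 172, 104 and 150.5 CPM at 15 d. In muscle it stood at 2588, 1519 and 2152 CPM at 45 d, against 1387, 2645 and 1799.7 CPM at 15 d, with wide overlap. Its interaction was -1.46 ± 0.32 (adjusted p = 0.0222) and passed in 16 of 22 alternative fits. Myo31DF, a second class I myosin, known for setting left-right asymmetry, stood at 112, 102 and 111 CPM in heads at 45 d, against 52.4, 57.1 and 59.9 CPM at 15 d, with an interaction of -1.04 ± 0.18 (adjusted p = 0.00428). cib, an actin-binding protein, had one of -1.0 ± 0.23 (adjusted p = 0.0318) and passed in 12 of 22. These 3 rose in heads and did not pass in muscle.

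Among the 14 genes that fell in heads alone were mRpL54, pinta, mwh, M7BP, b and FAM21. b, the aspartate decarboxylase that makes beta-alanine, stood at 80.8, 81.4 and 95.3 CPM in heads at 45 d, against 140.1, 155 and 168 CPM at 15 d. In muscle it stood at 281, 272 and 247 CPM at 45 d, against 253, 264 and 309 CPM at 15 d. Its interaction was 0.80 ± 0.14 (adjusted p = 0.00423), and it passed in 21 of 22 alternative fits. M7BP, a myosin-7a binding protein, stood at 442, 498 and 810.4 CPM in heads at 45 d, against 1089.8, 1187 and 1056 CPM at 15 d, with an interaction of 0.92 ± 0.23 (adjusted p = 0.0448) that passed in 6 of 22. pinta, a retinoid-binding protein of the retina's pigment cells, stood at 42.4, 45.1 and 60.9 CPM in heads at 45 d, against 73.3, 80.8 and 87.0 CPM at 15 d, with an interaction of 0.97 ± 0.22 (adjusted p = 0.0269) that passed in 13 of 22. mwh, a planar polarity gene, mRpL54, of the mitochondrial ribosome, and FAM21, of the actin-regulating WASH complex, had interactions of 0.95 ± 0.21, 1.07 ± 0.26 and 0.75 ± 0.18, which passed in 14 of 22, 9 of 22 and 8 of 22 fits. The summed photoreceptor markers of the same head samples lay below their 15 d range at 45 d, as given above. Of these markers ninaE, norpA, Arr2, inaD and chp did not overlap between the ages in heads, where 26.9% of all genes tested did not. The marker trp overlapped, at 1799 to 2230 CPM at 45 d, against 2122 to 2315 CPM at 15 d. The part of photoreceptor RNA in these falls was not tested.

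In 15 genes muscle and heads moved in opposite directions and both changes passed. eEF1alpha2 (FBgn0000557, r6.36 3R:31738468-31743306) encodes a translation elongation factor that brings aminoacyl-tRNA to the ribosome. It stood at 1055, 886 and 979 CPM in muscle at 45 d, against 558, 634 and 559.5 CPM at 15 d. Its head libraries stood at 625, 663 and 669.5 CPM at 45 d, against 901, 869.7 and 941 CPM at 15 d, so that muscle rose and heads fell, neither with overlap. The interaction was 1.21 ± 0.11 (95% interval 0.98 to 1.44, adjusted p = 1.9e-05). Pu, GTP cyclohydrolase of pteridine synthesis, l(2)k09913 and TBC1D23 also rose in muscle and fell in heads, with interactions of 0.53 ± 0.10, 0.70 ± 0.09 and 0.56 ± 0.10 (adjusted p = 0.00883, 0.000505 and 0.00767).

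The opposite pattern, lower in muscle and higher in heads, was held by 10 genes. dsx, the sex-determination transcription factor, stood at 113, 115 and 93.5 CPM in muscle at 45 d, against 183, 155 and 193 CPM at 15 d. The head libraries held it at 75.8, 73.4 and 64.8 CPM at 45 d, against 54.7, 48.8 and 46.1 CPM at 15 d. Its interaction was -1.25 ± 0.15 (adjusted p = 0.000246). MFS3, a transporter of the major facilitator superfamily, stood at 13.2, 13.1 and 16.5 CPM in muscle at 45 d, against 27.0, 23.0 and 20.8 CPM at 15 d, and at 7.39, 6.63 and 6.11 CPM at 45 d, against 3.02, 3.34 and 2.89 CPM at 15 d in heads. Its interaction was -1.85 ± 0.27 (adjusted p = 0.00138). Sesn, sestrin, a stress-induced inhibitor of TOR signalling, stood at 189, 196 and 203 CPM in muscle at 45 d, against 290.4, 289.6 and 294 CPM at 15 d. In heads it stood at 210.1, 192 and 158 CPM at 45 d, against 148, 145 and 146 CPM at 15 d, with an interaction of -0.92 ± 0.12 (adjusted p = 0.000505). For Sesn 67.4% of the exon bases lie in another annotated gene. kay, the Fos subunit of AP-1, had an interaction of -0.67 ± 0.11 (adjusted p = 0.00223), Prm, paramyosin, one of -0.77 ± 0.15 (adjusted p = 0.00782), and D2hgdh, which oxidises D-2-hydroxyglutarate, one of -0.58 ± 0.12 (adjusted p = 0.0173). Prm stood at 84.3, 82.7 and 87.0 CPM at 45 d, against 51.9, 63.5 and 72.6 CPM at 15 d in heads. In these libraries the sum of the 7 muscle markers overlapped between the ages, but its members differed. bt ranged from 307 to 346 CPM at 45 d, against 231 to 292 CPM at 15 d, and Mf from 341 to 351 CPM, against 372 to 427 CPM. fln was also above its 15 d range, and Mhc, up, Act88F and TpnC4 overlapped. The part of muscle RNA in the head change of Prm was not tested.

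**Figure D3:**
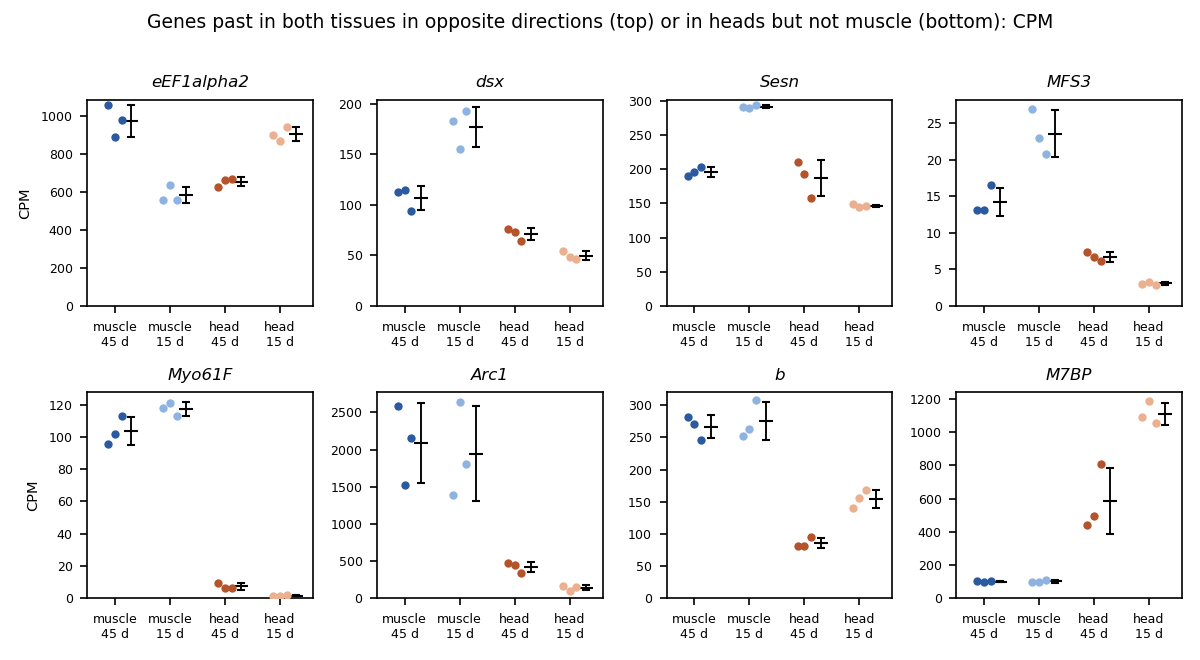
CPM per library (points) with mean and SD beside them (n = 3), for 4 genes that passed in opposite directions (eEF1alpha2, dsx, Sesn, MFS3) and 4 that passed in heads and not in muscle (Myo61F, Arc1, b, M7BP), each panel on its own linear axis from 0. In the top row the muscle pair and the head pair step in opposite directions, and in the bottom row the head groups do not overlap while the muscle groups do.

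More genes passed in both tissues in the same direction than passed the interaction, but the 2 tests differ in precision. The interaction carries the error of both changes, with an SE of 0.11 for SERCA, against 0.08 in each tissue. Both counts include 13 genes that passed all 3 tests. The genes that passed in both tissues in the same direction came to 404, 219 higher (2.34% of genes tested) and 185 lower (1.98%). The 219 were 28.6% of the genes that rose in muscle and 52.8% of those that rose in heads, and the 185 were 23.4% and 37.5% of those that fell. The muscle and head changes share no library, but that does not make them independent. Same-numbered muscle and head libraries of the same age had deviations from their group means with r from -0.0056 to 0.21. The main fit took no account of this. For 162 of the 219 and 174 of the 185, the 95% interval of the interaction lay within 2-fold. A rise or fall of at least 2-fold in both tissues was found for 53 and 2 genes. The 219 and 185 dropped to 126 and 96 without head replicate 2 at 15 d, and to 132 and 105 without head replicate 3 at 15 d.

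Immune genes were among the largest shared rises. All 14 antimicrobial peptide genes tested, of 15 in the list, rose in both tissues, with a median of 3.25 in muscle and 3.20 in heads, and none passed the interaction. Mtk, metchnikowin, stood at 420.1, 217 and 642 CPM in muscle at 45 d, against 35.4, 48.1 and 26.6 CPM at 15 d. In heads it was at 445, 227 and 720.1 CPM at 45 d, against 82.9, 31.5 and 32.3 CPM at 15 d. The muscle change was 3.54 ± 0.48 and the head change 3.24 ± 0.45 (adjusted p = 8.24e-05 and 0.000316). Its interaction was 0.30 ± 0.64, with an interval of -1.06 to 1.66, wide enough to hold a difference of more than 2-fold either way. The interval stayed within 2-fold for 1 of the 14. Replicate 2 was the lowest of the 45 d libraries of both tissues for Mtk, and likewise for Drs, drosomycin, which stood at 434, 296 and 663 CPM in muscle at 45 d, against 64.2, 83.3 and 72.2 CPM at 15 d and at 222, 104 and 354 CPM at 45 d, against 19.2, 23.4 and 29.6 CPM at 15 d in heads. With all 24 libraries 13 antimicrobial peptide genes rose in muscle and 12 in heads, and with robust dispersion 9 and 8. The count in heads dropped to 9 without head replicate 3 at 15 d.

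Bomanins are short Toll-induced peptides that act against infection. Of 15 Bomanin and Toll effector genes tested 13 rose in muscle and 12 in heads, with medians of 0.93 and 0.81, and for 12 of 15 the interval of the interaction lay within 2-fold. BomS1 stood at 314, 257 and 359.7 CPM in muscle at 45 d, against 123, 172 and 134 CPM at 15 d, and at 248, 213 and 275 CPM at 45 d, against 122, 111 and 147 CPM at 15 d in heads. Its interaction was 0.17 ± 0.20 (adjusted p = 0.803, interval -0.26 to 0.60). The head count of 12 dropped to 6 without head replicate 2 at 15 d and to 7 without head replicate 1 at 15 d or head replicate 3 at 45 d. With DESeq2 it was 8, with robust dispersion 8 rose in muscle and 6 in heads, and with all 24 libraries 5 Bomanin and effector genes rose in muscle and 0 in heads. Peptidoglycan recognition proteins sense or digest bacterial cell wall, and 6 of the 9 tested rose in both tissues. PGRP-SB1 stood at 455, 364 and 672 CPM in muscle at 45 d, against 162, 131 and 93.9 CPM at 15 d, and at 435, 382 and 689 CPM at 45 d, against 156, 98.6 and 85.7 CPM at 15 d in heads, with an interaction of -0.20 ± 0.37 and an interval of -0.99 to 0.60. PGRP-SD, a secreted sensor, had 1.76 in muscle and 1.93 in heads. PGRP-SC2, an amidase, had 2.55 in muscle and 4.74 in heads, and its interaction of -2.19 ± 0.75 did not pass (adjusted p = 0.174), against 12 counts in heads at 15 d. Of 22 Toll and Imd signalling genes 4 rose in muscle and 4 in heads, where 8.19% and 4.43% of all genes rose. With library size alone they came to 7 and 8, and with all 24 libraries to 1 and 1. The muscle count was 1 without muscle replicate 3 of either age and 2 without muscle replicate 1 at 45 d, and the head count was 1 without head replicate 2 at 45 d or head replicate 3 at 15 d and 2 without head replicate 1 at 15 d. Outside immunity, Obp56a rose by 1.88 in muscle and 2.16 in heads, and Ahcy, adenosylhomocysteinase of the methionine cycle, by 1.0 and 0.75. Of 8 methionine metabolism genes 4 rose in muscle and 3 in heads, and of 12 metallothionein and iron genes 6 and 4 did, with no interaction past in either list. Of all genes 8.19% rose in muscle and 4.43% in heads. The 4 metallothionein and iron genes in heads became 1 with all 24 libraries and 2 without head replicate 1 at 45 d or head replicate 3 at 15 d.

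Shared falls were smaller. Lsp1beta, a storage protein of the fat body, stood at 89.9, 104 and 120.4 CPM in muscle at 45 d, against 292, 169 and 290.3 CPM at 15 d, and at 83.4, 102 and 99.8 CPM at 45 d, against 299.9, 152 and 269.6 CPM at 15 d in heads, with an interaction of 0.08 ± 0.31 (interval -0.58 to 0.75). PPO1, a prophenoloxidase of crystal cells used in melanisation, fell in both, with log2 changes of -1.20 ± 0.18 in muscle and -0.94 ± 0.17 in heads. FarO, a fatty acyl-CoA reductase, Cpr49Ae, a cuticle protein, tadr, a predicted amino acid transporter, and the tetraspanin gene TM4SF fell in both, with log2 changes of -0.82, -0.86, -0.66 and -0.62 in muscle and -1.07, -0.74, -0.87 and -0.81 in heads. The head fall of FarO rests on 27 counts at 45 d and 56 at 15 d, and passed in 14 of 22 alternative fits, not with voom weights, with all 24 libraries or without any 1 of the 6 head libraries. Of 30 neuron and synapse genes 19 fell in muscle and 13 in heads, with medians of -0.37 and -0.27, and none passed the interaction, whose interval lay within 2-fold for all 30. The 13 dropped to 8 without head replicate 2 at 15 d, and with all 24 libraries 0 neuron genes fell in either tissue. With library size alone the 19 became 10 and the 13 became 9. The 5 neuron markers summed to 743 to 831 CPM in muscle at 45 d, against 1031 to 1099 CPM at 15 d, and to 2669 to 2751 CPM in heads at 45 d, against 3365 to 3776 CPM at 15 d. Of 30 photoreceptor genes 18 fell in heads, 5 in muscle and 4 in both, against 5.27%, 8.43% and 1.98% of all genes, and rdgA alone passed the interaction. In muscle ninaE, trp, Arr2, inaD and chp had at most 10.8 CPM in any library, and the part of this low level in the missing calls was not tested. With all 24 libraries 1 of the photoreceptor genes fell in each tissue. For 10 of the 30 the interval lay within 2-fold.

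**Figure D4:**
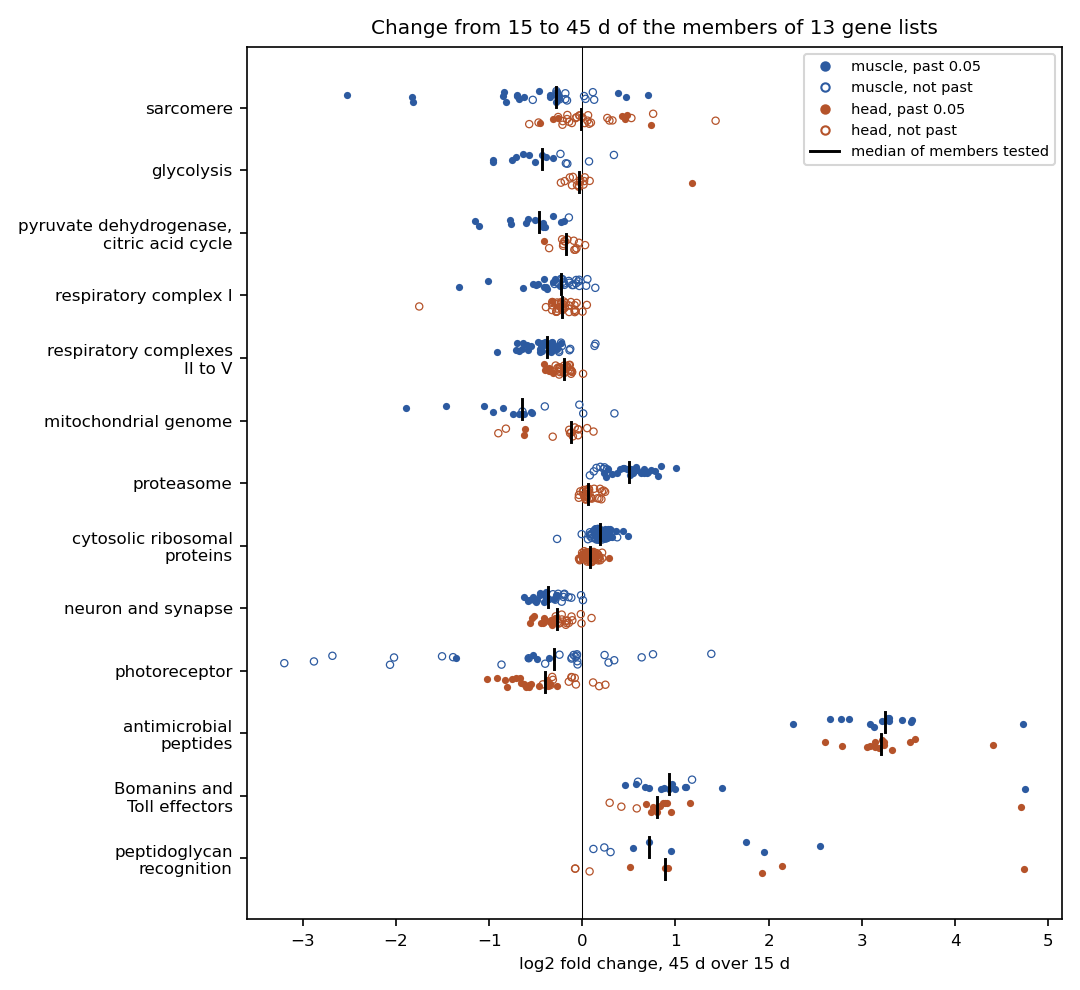
Log2 fold change from 15 to 45 d of every tested member of 13 gene lists, muscle in blue above heads in orange, filled where the change passed 0.05, with a black bar at the median. For sarcomere, glycolysis, the mitochondrial genome and the proteasome the 2 medians lie apart (-0.28 and -0.01, -0.43 and -0.03, -0.64 and -0.12, 0.50 and 0.07), while for antimicrobial peptides they lie at 3.25 and 3.20.

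Of the 51 lists 30 had no member past the interaction, and 7 had 1. The lists hold 1021 of the genes tested and 70 of the 237 past the interaction. Among the 30 were cytochrome P450 genes, of which 68 were tested, with 6 higher and 5 lower in muscle, against 8.19% and 8.43% of all genes. The 6 became 16 with library size alone, 3 with DESeq2, 1 with all 24 libraries, 1 without muscle replicate 1 or 2 at 45 d or muscle replicate 3 at 15 d and 2 without muscle replicate 1 or 2 at 15 d, and the 5 became 1 with library size alone or with all 24 libraries and 8 without muscle replicate 3 at 45 d. Serpins rose in 6 of 13 in each tissue, where 8.19% of all genes rose in muscle and 4.43% in heads. Of the 13, 1 fell in muscle, against 8.43% of all genes. None of the 15 small and inducible heat shock genes passed in heads, and l(2)efl rose in muscle, by 0.96 ± 0.15, with an interaction of 0.79 ± 0.26 (adjusted p = 0.144). Gcn5, the lysine acetyltransferase whose substrates the study mapped, stood at 90.4, 101 and 82.5 CPM in muscle at 45 d, against 70.1, 75.3 and 74.4 CPM at 15 d, and at 76.7, 76.3 and 63.9 CPM at 45 d, against 53.7, 54.9 and 57.2 CPM at 15 d in heads. It rose in both, by 0.32 ± 0.09 and 0.39 ± 0.09 (adjusted p = 0.0256 and 0.0119), and the interaction was -0.07 ± 0.13 with an interval of -0.35 to 0.20. The rise passed in 15 of 22 alternative fits in muscle and in 19 of 22 in heads. It was lost with all 24 libraries in both tissues, with DESeq2 in muscle, and without single libraries: muscle replicate 1 or 2 at 45 d and any muscle replicate at 15 d in muscle, and head replicate 1 or 2 at 45 d in heads. Of 25 genes of the SAGA and ATAC complexes that hold Gcn5, 3 rose in muscle and 1 in heads, where 8.19% and 4.43% of all genes rose, and none passed the interaction. The 3 became 0 with DESeq2, with all 24 libraries, and without muscle replicate 1 or 2 at 45 d or muscle replicate 1 at 15 d, and 1 without muscle replicate 2 or 3 at 15 d.

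Some of the genes named above share exon bases with a neighbour, and without a known strand setting their reads cannot be told apart. The share in another gene was 18.8% for Itgbn, 16.7% for bw and 10.6% for SdhB, with SERCA, Trxr1, Rpt6 and Myo31DF between the values for bw and SdhB.

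The 30 d libraries, which took no part in the test, were set beside it as a description. For each gene the gap between tissues is the mean log2 CPM in muscle minus that in heads. In this paragraph higher in muscle means a gap above 0, and no test was made at 30 d. Of the 105 genes that passed through a fall in muscle, 95 (90.5%) were higher in muscle than in heads at 30 d, with a median gap of 1.10, against 49.7% of all genes tested. Their median level was 7.34 on the log2 CPM scale, against 4.86 for all genes, and the part of level in this share was not tested. Of the 64 that passed through a rise in muscle this was so for 47 (73.4%), with a median gap of 0.51. Of the 25 that rose in heads alone 21 had the higher level in muscle, and of the 14 that fell in heads alone 3 had. eEF1alpha2 had a gap of -0.63 at 15 d, 0.19 at 30 d and 0.57 at 45 d, so that its higher level lay in heads at 15 d and in muscle at the later ages. The genes that rose in both tissues were higher in muscle at 30 d in 82.6%, and those that fell in both in 26.5%.

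**Figure D5:**
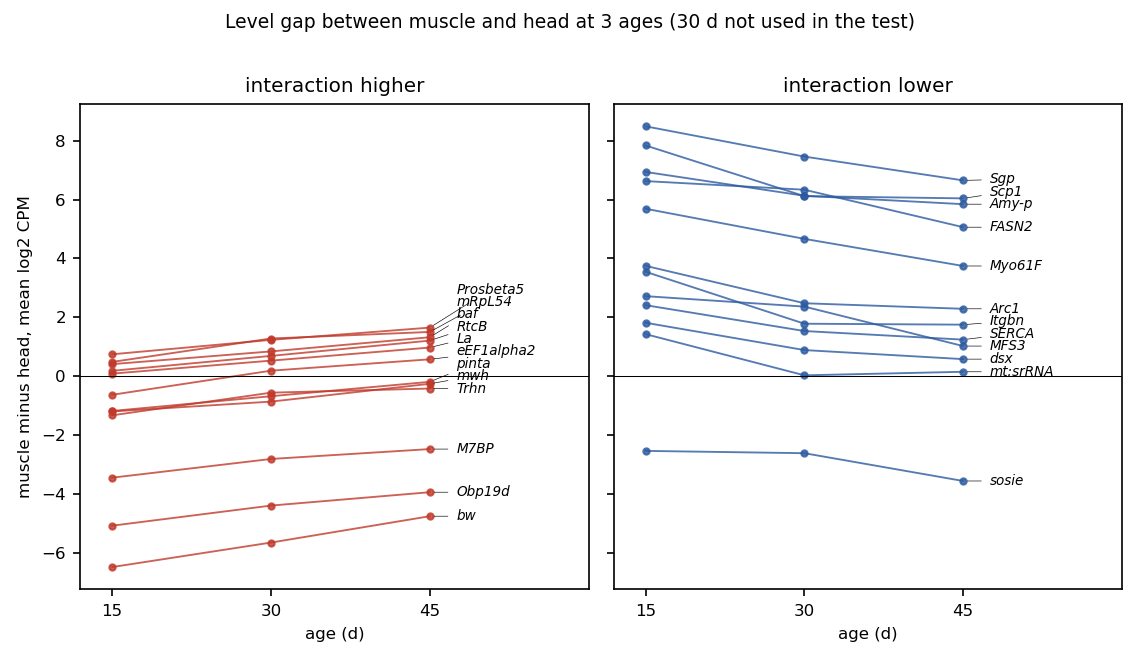
Gap between tissues (mean log2 CPM in muscle minus heads) at 15, 30 and 45 d for the 12 named genes with the largest (red, left) and the 12 with the smallest (blue, right) interaction. Lines rise on the left and fall on the right between 15 and 45 d because the genes were chosen so, and a middle point between such ends is likely by the same choice. eEF1alpha2 crosses 0 between 15 and 30 d.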

How the data were processed

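Poly-A RNA of Drosophila heads and muscle was sequenced as single 100 nt ends, per the labels' protocols. The authors deposited 1 file of raw counts per gene and library. The tools in the submitters' processing notes are DESeq2, featureCounts 2.0.1, STAR 2.7.6a and Trim Galore 0.6.6, while the deposited count files end in the 5 tallies that htseq-count writes, so which program made the counts is not settled. For the counts, neither genome build nor annotation nor strand setting is given in the sources used here. Gene IDs were matched to symbols by the reference table for 17358 IDs (99.2%), and positions, from the r6.36 annotation in the series' whole-fly files, to 9310 of the genes tested (99.4%). Exon overlap between named genes and others was computed from the BDGP6.54 annotation by gene ID.

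The 5 tallies were left out of library sizes and tests. Genes were kept by filterByExpr (minimum count 10, minimum total 15), which left 9363 of 17494, libraries were scaled by TMM and a quasi-likelihood model with 1 mean per group was fitted to the 12 libraries (edgeR 4.0.16, R 4.3.3). The interaction and the change in each tissue are contrasts of this fit, with Benjamini-Hochberg adjustment over the 9363 genes and a threshold of 0.05. SE is the size of the log2 change over the square root of F, and the 95% intervals follow from it. The code was tested on simulated data. Alternatives were other scalings, no filter, DESeq2 1.42.0, limma 3.58.1 with voom weights by group, a robust fit, a replicate block, each tissue by itself, all 24 head and muscle libraries, and each library left out in turn. Of 18 same-numbered pairs 3 had deviations correlated over 0.1. All 3 were among the 6 that set muscle against heads of the same age. The main fit assumed no pairing, and a fit with a replicate block by age is given below.

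The genes and the 51 lists were chosen with earlier results of these data known, and no list or set was tested as a set. Named genes have an interaction past 0.05, a mean log2 CPM of at least 3, a symbol other than a CG or CR number and no overlap between the ages in at least 1 tissue, and are the 12 largest and the 12 smallest interactions. To these come up to 6 per direction of shared, opposite and heads-alone genes, up to 4 members of each list by smallest interaction p, or up to 2 where none passed, and Gcn5. Ldh, Mlp84B, TpnC25D, Mhc, TpnC41C, Obsc, Strn-Mlck, Zasp52, tmod, sls, mt:CoIII and the later listed members of glycolysis and the proteasome were named after their values were seen. Counting intervals cover counting error only.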

Additional observations from a re-analysis of the deposited data

Results flagged for a closer look

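The change from 15 to 45 d differed between muscle and heads, by the test of the difference itself, for 88 genes higher and 149 lower. The 15 genes whose changes passed in opposite directions in both tissues stand out among them. Those lower in muscle and higher in heads were CG7910 (-2.08), MFS3 (-1.85), dsx (-1.25), CG3630 (-0.95), Sesn (-0.92), Prm (-0.77), kay (-0.67), D2hgdh (-0.58), Oda (-0.52), which encodes the ornithine decarboxylase antizyme, and Sarm (-0.44), an NAD hydrolase of axon loss, with the interaction log2 in brackets. Those higher in muscle and lower in heads were eEF1alpha2 (1.21), CG15822 (1.06), l(2)k09913 (0.70), TBC1D23 (0.56) and Pu (0.53).

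Outside the gene counts, the tally of reads not uniquely aligned in muscle replicate 3 at 45 d stood at 36.6%, against 8.59% in the next highest of the 12 libraries.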

How the results depend on the processing

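Over 94 named results and 23 alternative fits, 12 of which left out 1 library, 2064 values were recomputed. Of these 1793 kept direction and call, 271 kept direction and lost the call, and 0 changed direction. All 94 had passed in the main fit, so no call could be gained, and the fits reuse the same libraries. M7BP, FAM21, GstD1 and mRpL54 held in 6 of 22, 8 of 22, 8 of 22 and 9 of 22 fits, and Ald1, fln, Gpo1, La, mAcon1, MFS3 and Myo61F in every one run. With all 24 head and muscle libraries in 1 fit, 3 genes passed the interaction higher and 13 lower, 260 and 205 passed in muscle, 128 and 56 in heads and 63 and 13 in both, with 1 sarcomere, 2 glycolysis, 1 citric acid cycle, 0 mitochondrial genome and 0 proteasome genes past the interaction. The cause was not tested. With library size alone, 1662 rose and 434 fell in muscle, 696 and 271 in heads and 436 and 85 in both, and 50.2% of interaction calls were higher, against 37.1% with TMM. The share higher was 26.8% with RLE factors, 23.9% with DESeq2, which called 458 genes higher in muscle, and 17.7% without mitochondrial genome genes, which left 48 higher interactions and 0 of that list, as these genes were removed. In muscle the share higher was 49.3% with TMM, 37.5% with RLE, 79.3% with library size, 37.9% without mitochondrial genome genes and 35.5% with DESeq2, and in heads 45.7% with TMM and 72.0% with library size. The numbers on the replicates were not taken to pair the libraries. Over 18 same-numbered pairs r ran from -0.29 to 0.21 and 3 were over 0.1. All 3 were among the 6 that set muscle against heads of the same age, where r ran from -0.0056 to 0.21. With the replicate block 84 genes passed higher and 148 lower, and with the replicate block by age 145 and 264. Leaving out 1 library at a time gave 30 to 118 interactions higher and 94 to 235 lower, 397 to 841 genes higher and 639 to 896 lower in muscle, 226 to 490 and 255 to 518 in heads, and 126 to 197 and 96 to 180 in both. It gave 5 to 14 sarcomere, 5 to 10 glycolysis, 4 to 5 citric acid cycle, 5 mitochondrial genome and 6 to 14 proteasome genes. Higher calls in muscle dropped to between 397 and 483 without muscle replicate 1 at 45 d or any muscle replicate at 15 d, and those in heads to between 226 and 276 without head replicate 1 or 2 at 45 d or head replicate 2 or 3 at 15 d. The lowest count lower in heads and both lowest counts in both tissues were without head replicate 2 at 15 d. Depth limits genes of few counts, such as bw in muscle and Myo61F, Itgbn and Sgp in heads.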
